A study of Mus musculus with 17 samples.

Results

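The phagocyte NADPH oxidase and its small GTPases were followed through polyA RNA-seq of mouse macrophages. The genes were taken by name: Cybb and Cyba, which encode the membrane flavocytochrome, Ncf1 and Ncf4, which encode cytosolic subunits, and the GTPase genes Rac1, Rac2 and Rap1a. All 7 had a model among the 24453 gene models measured, all 7 were high enough to be tested in every comparison, and they do not include every known component of the complex. Levels are RPKM, reads per kilobase of exon scaled to the mapped reads of the library, so that levels of different genes can be set side by side per length.

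The study asked which functions of AP-1 transcription factors, dimers of Fos, Jun and ATF family proteins, are particular to a family member. Immortalised bone marrow-derived macrophages (iBMDMs) came from C57Bl/6EiJ cells and all carried BRAF (V600E) and Myc, at passages 3 to 8. CRISPR editing was aimed at the gene of JunD (JunDKO), at Jun (JunKO) or at Atf3 (Atf3KO), and the control was labelled scramble (Scramble) and carries zsGreen in its sample titles, which the titles of the knockout libraries do not. Each of these 4 groups was labelled vehicle (PBS) and gave 2 libraries. Thioglycollate elicited macrophages (TGEMs), primary cells recruited to the peritoneum, received vehicle or, for 1 h, the TLR4 agonist KLA (Kdo2 lipid A). For vehicle there was 1 library of each strain, C57Bl/6EiJ and Balb/cJ, and for KLA there were 1 and 2 libraries, with no engineered allele in the labels. The labels do not say whether libraries of a group came from separate cultures or mice, or whether an edited line was a clone, so p-values measure the spread between these libraries alone.

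In phagocytes the oxidase moves electrons from cytosolic NADPH across a membrane to oxygen, which gives superoxide. The flavocytochrome holds the electron carriers, and it stays idle until the cytosolic subunits and a GTP-bound Rac protein join it at the membrane. Each Rac protein is kept in the cytosol by a GDP dissociation inhibitor and is switched on by exchange factors, while protein kinases phosphorylate the cytosolic subunits. Loss of the flavocytochrome or of a cytosolic subunit causes chronic granulomatous disease, in which phagocytes take up microbes but kill them poorly.

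Library depth recovered from the RPKM steps spanned 1553296 to 18444598 reads, and 74.1% to 86.4% of them were exonic. The 8 macrophage markers with a model were measured at 1 RPKM or more in both kinds of cell, among them Cd68, Csf1r and Lyz2. Markers of B cells summed to 10.1 to 23.9 RPKM and those of fibroblasts to 37.7 to 78.9 RPKM in TGEMs, against at most 0.49 and 0.53 RPKM in iBMDMs. Of 10 neutrophil markers, a cell type rich in the oxidase, 7 were at 0 in every iBMDM library, S100a9, Ly6g and Mpo among them, and the 10 summed to 10.8 to 46.0 RPKM there and to 5.26 to 33.5 RPKM in TGEMs, where 4 were at 0. All libraries are labelled male, and Xist, the RNA of the silenced X chromosome, had 863 to 8676 reads in TGEM libraries and 0 to 3 in iBMDM libraries. Atf3 stood at 80.7 and 77.4 RPKM in Scramble and higher, at 154 and 169 RPKM, in the libraries whose label is Atf3KO. Jun stood at 17.6 and 18.5 RPKM in Scramble and at 26.2 and 20.5 RPKM in the libraries whose label is JunKO. Jund stood at 6.94 and 6.07 RPKM in those labelled JunDKO against 9.19 and 8.33 RPKM in Scramble. In Atf3KO, Jund stood at 22.6 and 83.0 RPKM and Jun at 17.9 and 46.2 RPKM, and their part in the Atf3KO results was not tested. Exonic RPKM does not show a small edit, so these levels do not check the labels. In bulk RNA, fewer cells of a type and less RNA per cell cannot be told apart.

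The genes of the flavocytochrome were near each other in iBMDMs and far apart in TGEMs. Cybb (NM_007807), the catalytic subunit, lies on the minus strand at chrX:9435254-9469324 (mm10) with 13 exons in RefSeq. Its levels were 333 and 428 RPKM in Scramble iBMDMs, 436 and 275 RPKM in Atf3KO, 299 and 406 RPKM in JunKO, and 213 and 255 RPKM in JunDKO. In TGEMs Cybb measured 152 RPKM with vehicle and 169 with KLA in C57Bl/6EiJ, and 121 with vehicle and 219 and 175 with KLA in Balb/cJ. Both JunDKO libraries were below all other iBMDM libraries, and the lowest TGEM library was the Balb/cJ vehicle library.

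Cyba (NM_007806), the smaller subunit that stabilises Cybb protein and anchors the cytosolic subunits, lies on the minus strand at chr8:122424771-122432940 with 6 exons. It measured 242 and 211 RPKM in Scramble, 428 and 788 in Atf3KO, 283 and 279 in JunDKO, and 303 and 227 in JunKO. In TGEMs it measured 1886 RPKM with vehicle and 1771 with KLA in C57Bl/6EiJ, and 1110 with vehicle and 1313 and 1503 with KLA in Balb/cJ. Every TGEM library was above every iBMDM library, and among iBMDMs both Atf3KO libraries were above the other 6. Within a library the ratio of Cyba to Cybb RPKM ran from 0.492 (a Scramble library) to 2.86 (an Atf3KO library) in iBMDMs and from 6.00 to 12.4 in TGEMs.

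Since the knockouts concern DNA-binding factors, the 250 bases upstream of the RefSeq start are shown for Cybb, Cyba and Ncf1, the members with an entry in the promoter table used here (RefSeq, GRCm38.p6). Each is printed 5′ to 3′ in the direction of the gene, all on the minus strand, and capitals mark a CCAAT box (CCAAT) or a GC box (GGGCGG, or CCGCCC where it is on the other strand). The windows are chrX:9469325-9469574 for Cybb, chr8:122432941-122433190 for Cyba and chr5:134229626-134229875 for Ncf1.
Cybb promoter: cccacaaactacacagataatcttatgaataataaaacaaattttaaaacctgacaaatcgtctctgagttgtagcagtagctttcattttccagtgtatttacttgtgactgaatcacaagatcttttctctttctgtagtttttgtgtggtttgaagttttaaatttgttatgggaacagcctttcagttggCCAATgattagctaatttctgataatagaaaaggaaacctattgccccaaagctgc
Cyba promoter: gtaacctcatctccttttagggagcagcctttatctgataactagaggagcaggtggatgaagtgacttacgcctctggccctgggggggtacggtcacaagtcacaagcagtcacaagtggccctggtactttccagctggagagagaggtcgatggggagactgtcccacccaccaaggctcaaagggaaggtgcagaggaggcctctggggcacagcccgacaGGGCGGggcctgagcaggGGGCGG
Ncf1 promoter: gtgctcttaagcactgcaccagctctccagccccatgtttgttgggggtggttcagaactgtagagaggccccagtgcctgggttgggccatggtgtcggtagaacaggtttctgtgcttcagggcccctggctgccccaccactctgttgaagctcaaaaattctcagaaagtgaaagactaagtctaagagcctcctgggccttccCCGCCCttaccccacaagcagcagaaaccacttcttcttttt
The Cybb window was 34% GC and held CCAAT at -56 to -52 from the start, a motif found on either strand in 34.5% of 27025 promoter windows of this length. The Cyba window was 60% GC with GC boxes at -24 to -19 and -6 to -1, and the Ncf1 window was 54.4% GC with a GC box on the other strand at -42 to -37, where 32.9% of all windows held a GC box. None of the 3 windows held, on either strand, the AP-1 letters TGACTCA (4.43% of all windows), the CRE letters TGACGTCA (1.62%) or the PU box letters GAGGAA (23.1%). These are matches of letters and not measured sites.

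Among the cytosolic subunits, Ncf1 lay apart between the cell types and Ncf4 overlapped. Ncf1 (NM_010876), the organiser that links the cytosolic subunits to Cyba once phosphorylated, lies on the minus strand at chr5:134220259-134229625 with 11 exons. It measured 174 and 177 RPKM in Scramble, 191 and 247 in Atf3KO, 147 and 143 in JunDKO, and 157 and 146 in JunKO. In TGEMs it measured 73.5 RPKM with vehicle and 93.3 with KLA in C57Bl/6EiJ, and 62.9 with vehicle and 106 and 100.2 with KLA in Balb/cJ. All TGEM libraries were below all iBMDM libraries, and all 3 KLA libraries were above both vehicle libraries.

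Ncf4 (NM_008677), which binds a phosphoinositide of the phagosome membrane, lies on the plus strand at chr15:78244811-78262580 with 10 exons. It measured 126 and 87.1 RPKM in Scramble, 117 and 162 in Atf3KO, 124 and 116 in JunDKO, and 103 and 76.1 in JunKO. In TGEMs it measured 129 RPKM with vehicle and 90.8 with KLA in C57Bl/6EiJ, and 144 with vehicle and 168 and 172 with KLA in Balb/cJ. Scramble overlapped with each knockout group, and the range of all iBMDM libraries overlapped with that of all TGEM libraries.

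Of the GTPase genes, Rac2 was lowest in JunDKO and Rap1a in Atf3KO. Rac1 (NM_009007), expressed in most cells, lies on the minus strand at chr5:143505481-143527993 with 6 exons, and its 13 values ran from 89.3 RPKM (a Balb/cJ KLA library) to 177 RPKM (a JunDKO library). Rac2 (NM_009008), the Rac gene of blood cells, lies on the minus strand at chr15:78559169-78572783 with 7 exons. Rac2 measured 180 and 118 RPKM in Scramble, 222 and 248 in Atf3KO, 48.5 and 45.2 in JunDKO, and 156 and 116 in JunKO. The JunDKO libraries were the lowest of all 13, since the TGEM libraries spanned 70.5 to 98.2 RPKM, and the Atf3KO libraries were the highest. The ratio of Rac1 to Rac2 RPKM within a library was 3.24 and 3.92 in JunDKO, 0.442 to 1.31 in the other 6 iBMDM libraries and 1.11 to 1.27 in TGEMs.

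Rap1a (NM_145541), a GTPase that copurifies with the flavocytochrome and also acts in integrin adhesion, lies on the minus strand at chr3:105727260-105801381 with 8 exons. It was the lowest of the 7 genes in every library. Rap1a measured 16.5 and 22.7 RPKM in Scramble, 3.90 and 4.01 in Atf3KO, 22.6 and 25.1 in JunDKO, and 16.0 and 23.8 in JunKO. In TGEMs it measured 17.6 RPKM with vehicle and 8.91 with KLA in C57Bl/6EiJ, and 25.8 with vehicle and 11.8 and 10.5 with KLA in Balb/cJ. The Atf3KO libraries, with 42 and 71 reads of the gene, were below all others, and the 3 KLA libraries were below the remaining 8. In rank, Rap1a stood at 8055 and 8016 of all models in Atf3KO and between 1987 and 4713 elsewhere, whereas the other 6 genes stood at 1491 or better in every library.

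**Figure D1:**
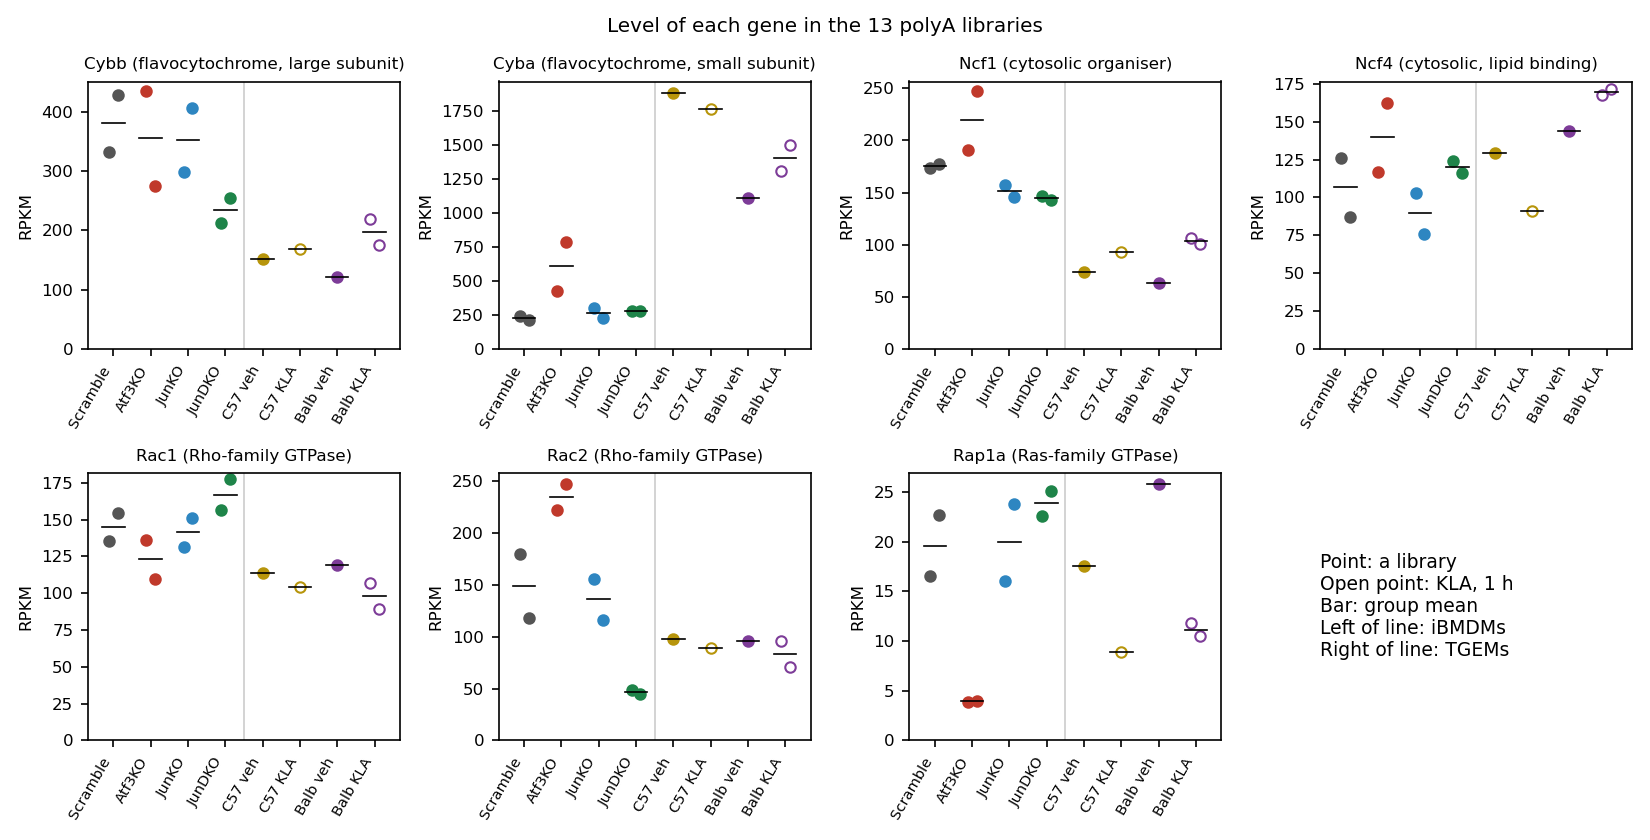
RPKM of each gene (vertical axes from 0, one panel a gene) in the 13 libraries, with a point for a library, open points for KLA and a bar for the group mean. Cyba was at 1110 RPKM or above in all TGEM libraries, Rac2 was at 48.5 RPKM or below in JunDKO alone, and Rap1a was at 4.01 RPKM or below in Atf3KO alone.

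A gene was called in a comparison at a Benjamini-Hochberg adjusted p under 0.05 from limma-trend on log2(RPKM + 1) over all tested models if it also differed by 2-fold or more and averaged 16 RPKM or more on one side. Comparisons with Scramble share the Scramble libraries, so their values for a gene are not independent of each other.

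In Atf3KO iBMDMs the small flavocytochrome subunit rose and Rap1a fell, which made 2 of 7 genes called, where 12.5% of all 10691 tested models were called. Cyba was 2.68-fold higher by mean RPKM, with a log2 fold change of 1.36 ± 0.29 (SE over 2 libraries per group; limma-trend adjusted p = 0.00793). Rap1a fell by 2.04 ± 0.24 on the log2 scale (SE over 2 libraries per group; limma-trend adjusted p = 0.00102), from a mean of 19.6 to 3.95 RPKM. Rac2 had a log2 fold change of 0.68 ± 0.24 (SE over 2 libraries per group; limma-trend adjusted p = 0.0497), which was under 2-fold and not called. Without Scramble replicate 2 it was 0.38 (limma-trend adjusted p = 0.289) and without Scramble replicate 1 it was 0.98. The catalytic subunit Cybb did not pass, with a log2 fold change of -0.12 and a 95% interval from -0.74 to 0.49, nor did Ncf1 (0.31), Ncf4 (0.39) or Rac1 (-0.24). The median over the 7 genes was 0.31, beside 0.05 over all tested models.

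The change of Cyba moved with base composition and with 1 library, and that of Rap1a was called under every alternative run. Across 10591 models the fold change of Atf3KO over Scramble was higher where GC content was higher (Spearman's correlation 0.50, a description), and Cyba at 59.3% GC stood at percentile 93.6 while Rap1a at 39.6% GC stood at percentile 5.92. With a GC correction the log2 fold change of Cyba was 0.58, under 2-fold, and that of Rap1a was -1.21 and remained called (limma-trend adjusted p = 0.00203). Cybb turned from -0.12 to 0.46 with that correction (limma-trend adjusted p = 0.0394), under 2-fold and not called. Atf3KO replicate 2 carries a later label date than the other iBMDM libraries. Without it, which leaves libraries of the same label date, Cyba had a log2 fold change of 0.92 and was not called, and Rap1a one of -2.05 and was called. Without Scramble replicate 2, Cyba had a log2 fold change of 1.26 with a limma-trend adjusted p of 0.0622. Both Atf3KO libraries also had reads in fewer models, 10425 and 10631 against 11884 to 12533 in the other iBMDM libraries. The part of these values in the results was not tested.

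JunKO iBMDMs gave 0 of 7 genes called, where 0.196% of 10691 tested models were called. At an unadjusted p under 0.05, 842 of all models but none of the 7 genes passed. Log2 fold changes lay between -0.24 (Ncf4) and 0.21 (Cyba), with Ncf1 at -0.21, Cybb and Rac2 at -0.11, Rac1 at -0.04 and Rap1a at 0.02. The 95% interval of Cyba reached 0.87 and that of Ncf4 reached -0.83, so that a change of 1 on the log2 scale lay outside the intervals of these genes at this spread.

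JunDKO iBMDMs had a lower level of Rac2, the only 1 of 7 genes called, where 4.97% of 10691 tested models were called. Rac2 fell by 1.62 ± 0.24 on the log2 scale (SE over 2 libraries per group; limma-trend adjusted p = 0.0042), from a mean of 149 to 46.9 RPKM, with both JunDKO libraries below both Scramble libraries. In 61.6% of all tested models the libraries of these groups did not overlap, in either direction. The median over the 7 genes was 0.19, beside 0.23 over all tested models, and with library medians made equal Rac2 had a log2 fold change of -1.89. Without JunDKO replicate 2, the deepest library, the log2 fold change was -1.57 with a limma-trend adjusted p of 0.0592. Cybb had a log2 fold change of -0.69 with a 95% interval from -1.31 to -0.08, and its limma-trend adjusted p of 0.139 did not pass. Cyba (0.31), Ncf1 (-0.28), Ncf4 (0.19), Rac1 (0.20) and Rap1a (0.29) were not called. The 8 macrophage markers summed to 16880 and 17442 RPKM in JunDKO and to 22314 and 23851 RPKM in Scramble. Lyz2 alone ran from 14814.9 to 30398.5 RPKM over the iBMDM libraries and made up most of these sums. The part of the difference in sums in the result was not tested. Of the 10 neutrophil markers 9 were at 0 in JunDKO and 7 in Scramble. The 10 summed to 10.8 and 11.1 RPKM in JunDKO and to 41.8 and 46.0 RPKM in Scramble. The JunDKO sums were Mmp8 alone, and 11.1 RPKM was its highest value in iBMDMs. S100a8, which reached 41.1 RPKM in iBMDMs, was at 0 in JunDKO, so the lower sum was not a fall of the list as a whole. The part of these markers was not tested either.

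The knockouts were also set against each other, since a call in one and none in another is no test of a difference. JunDKO against JunKO gave 1 of 7 genes called (3.5% of all models), Rac2, with a log2 fold change of -1.50 ± 0.24 (SE over 2 libraries per group; limma-trend adjusted p = 0.00749). It was no longer called when either JunDKO library or JunKO replicate 1 was left out, with limma-trend adjusted p from 0.0734 to 0.092. Atf3KO against JunDKO gave 3 of 7 genes called (12.2% of all models). There Rac2 was higher by 2.30 ± 0.24 on the log2 scale (limma-trend adjusted p = 0.000419), 235 against 46.9 RPKM by mean, and Rap1a was lower, with a log2 fold change of -2.32 ± 0.24 (SE over 2 libraries per group; limma-trend adjusted p = 0.000444). Both were called in 13 of 13 alternatives.

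Cyba was higher in Atf3KO than in JunDKO by 1.04 ± 0.29 on the log2 scale (SE over 2 libraries per group; limma-trend adjusted p = 0.0211), and this was called in 7 of 13 alternatives. It was lost with the GC correction (log2 fold change 0.56), with quantile normalization (0.75), without Atf3KO replicate 2 (0.60), without either JunDKO library (1.05 and 1.03) and at a limit of 2 on the log2 scale. Cybb, at 0.57 and not called, gained a call there with the GC correction (log2 fold change 1.27, limma-trend adjusted p = 0.000545). Ncf1 differed by 0.58 ± 0.18 in the same comparison (SE over 2 libraries per group; limma-trend adjusted p = 0.0298), under 2-fold and not called. Atf3KO against JunKO gave 2 of 7 genes called (9.71% of all models), with a log2 fold change of 1.14 ± 0.29 for Cyba (SE over 2 libraries per group; limma-trend adjusted p = 0.0179) and of -2.05 ± 0.24 for Rap1a (limma-trend adjusted p = 0.00136). Cyba lost its call there with the GC correction (log2 fold change 0.47), without Atf3KO replicate 2 (0.70), without JunKO replicate 2 (0.94) and at a limit of 2 on the log2 scale. Rac2 at 0.80 and Ncf1 at 0.52 were under 2-fold in that comparison.

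**Figure D2:**
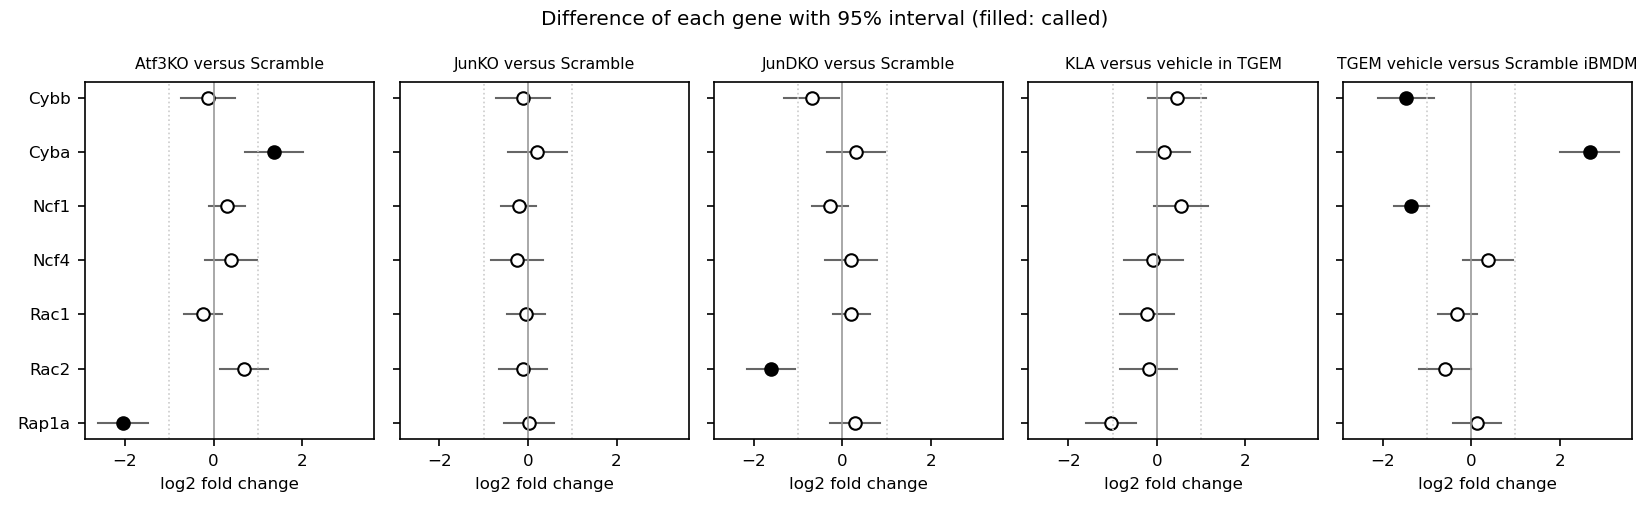
Log2 fold change of each gene (horizontal axes, point) with its 95% interval (line) in 5 comparisons, filled where the gene was called and dotted at 2-fold. Rap1a in Atf3KO (-2.04), Rac2 in JunDKO (-1.62) and Cyba in TGEMs (2.67) lay farthest from 0 in their panels.

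KLA for 1 h gave 0 of 7 genes called in TGEMs, where 1.13% of 10357 tested models were called with treatment and strain as terms. Rap1a came nearest, with a log2 fold change of -1.04 ± 0.24 (SE, 3 KLA and 2 vehicle libraries; limma-trend adjusted p = 0.112) and a 95% interval from -1.60 to -0.48, and it was lower in 3 of 3 KLA libraries than in both vehicle libraries. KLA and vehicle libraries did not overlap, in either direction, in 23.7% of all tested models. At an unadjusted p under 0.05 Rap1a alone of the 7 genes passed, as did 1553 of all models. It was called with limma-voom on recovered reads (-1.12, adjusted p = 0.0392) and with all 13 libraries in a single limma-trend fit (adjusted p = 0.0266), and over all 15 alternatives the adjusted p ranged from 0.0266 to 0.658. Against the vehicle library of the same strain and label date, Rap1a changed from 17.6 to 8.91 RPKM in C57Bl/6EiJ and from 25.8 to 11.8 RPKM in Balb/cJ.

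Neither subunit that stood higher in all 3 KLA libraries passed the test, and 23.7% of all tested models likewise did not overlap. Ncf1 had a log2 fold change of 0.55 with a 95% interval from -0.06 to 1.15, and Cybb one of 0.46 with an interval from -0.20 to 1.11. Cyba (0.16), Ncf4 (-0.08), Rac1 (-0.21) and Rac2 (-0.18) were not called either. The median over the 7 genes was -0.08, beside -0.15 over all tested models.

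**Figure D3:**
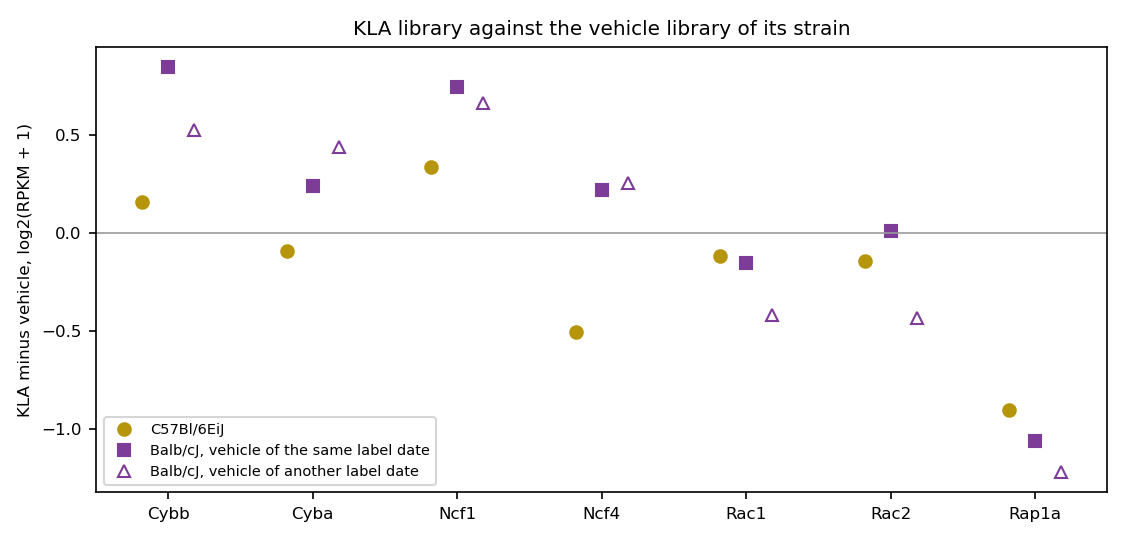
Difference between each KLA library and the vehicle library of its strain (vertical axis, log2(RPKM + 1)) for each gene, circles for C57Bl/6EiJ, squares for the Balb/cJ library of the vehicle's label date and open triangles for the other. Rap1a lay between -1.22 and -0.91 in all 3, while Cyba and Ncf4 lay below 0 in C57Bl/6EiJ and above 0 in both Balb/cJ libraries.

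The strains gave 0 of 7 genes called in TGEMs, where 1.16% of 10357 tested models were called. Ncf4 was farthest above 0, with a log2 difference of 0.58 for Balb/cJ over C57Bl/6EiJ and a 95% interval from -0.09 to 1.24. Cyba was farthest below 0 at -0.52, with an interval from -1.12 to 0.08. With the GC correction the difference of Cyba was -0.0262 and that of Ncf4 was 0.89, and without the C57Bl/6EiJ KLA library they were -0.76 and 0.15. Fold changes between the strains fell with GC content across 10264 models (Spearman's correlation -0.45, a description), and the reads of Balb/cJ were aligned to a genome of that strain. For the interaction of KLA and strain, fitted with 1 residual degree of freedom, 0 of 7 genes and 0% of 10357 models were called by limma-trend, and 835 models but none of the 7 genes passed an unadjusted p under 0.05.

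Vehicle TGEMs of both strains were set against Scramble to compare primary and immortalised cells. In this fit each vehicle TGEM library was a group of its own. SE and p of this comparison rest on the spread within groups of 2 libraries (5 residual degrees of freedom). They hold nothing of the spread between the 2 vehicle libraries, which for Cyba stood at 1886 and 1110 RPKM. Cyba was higher in TGEMs while Cybb and Ncf1 were lower, so that 3 of 7 genes were called, where 19.9% of 10929 tested models were called. Cyba was 6.61-fold higher in TGEMs, with a log2 fold change of 2.67 ± 0.29 (SE, 2 libraries per side; limma-trend adjusted p = 0.000141). Cybb was lower, with a log2 fold change of -1.47 ± 0.28 (SE, 2 libraries per side; limma-trend adjusted p = 0.00258), and so was Ncf1 at -1.35 ± 0.17 (SE, 2 libraries per side; limma-trend adjusted p = 0.000362). Both genes of the flavocytochrome were thus called, in opposite directions.

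The GTPase genes Rac1 (-0.31), Rac2 (-0.58) and Rap1a (0.13) and the subunit gene Ncf4 (0.38) were not called between the cell types. With a GC correction Cyba kept a log2 fold change of 2.24 and was called, while Cybb had one of -0.80 and Rap1a one of 0.90 (limma-trend adjusted p = 0.00284), both under 2-fold. The median over the 7 genes was -0.31, beside -0.32 over all tested models. Without the Balb/cJ vehicle library, which leaves both sides of the C57Bl/6EiJ strain, the same 3 genes were called. The source, the culture, the label date and the iBMDMs' BRAF (V600E) and Myc differ together between TGEMs and iBMDMs and cannot be told apart. The same holds for Xist, at 863 to 8676 reads in TGEMs and 0 to 3 in iBMDMs, while Cybb lies on chromosome X. The macrophage markers summed to 7803 to 10847 RPKM in TGEMs and to 16880 to 33015 RPKM in iBMDMs. Lyz2 alone ran from 5321 to 7145 RPKM and from 14814.9 to 30398.5 RPKM there. Csf1r, Itgam, Adgre1 and Fcgr1 were also lower in TGEMs, but Cd68 was higher, at 1404 to 4050 against 353 to 705 RPKM. The part of Xist and of the macrophage, B cell and fibroblast markers in the differences of the 7 genes was not tested.

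**Figure D4:**
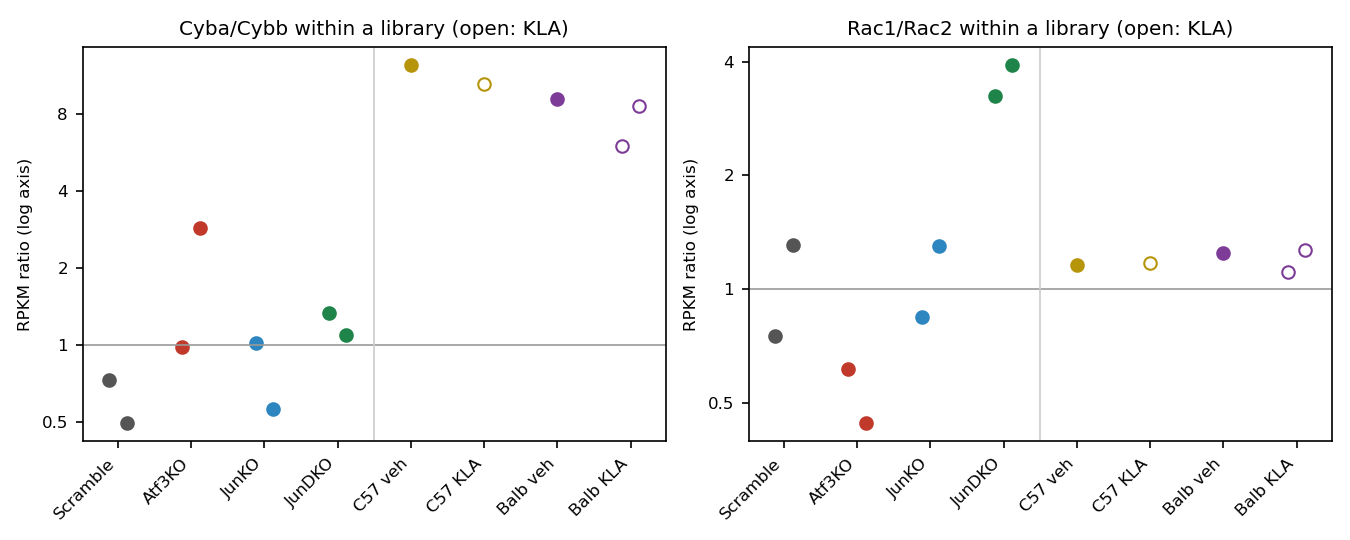
Ratio of Cyba to Cybb RPKM (left) and of Rac1 to Rac2 RPKM (right) within each library, on log axes. All TGEM libraries lay at 6.00 or above on the left, and on the right both JunDKO libraries lay at 3.24 or above while all others lay at 1.31 or below.

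Other genes of the pathway were counted from 5 lists, of which 48 genes had a model. Their values are from the main fit alone. Their calls, those in Atf3KO among them, were not checked with the GC correction or with a library left out. Of 10 other oxidase enzymes, organisers and maturation factors, 2 were high enough to be tested in iBMDMs and 1 in TGEMs, and 0 were called in any comparison, where 0% to 19.9% of all models were called. One of them, BC017643, the maturation factor of the flavocytochrome, measured 24.4 and 25.1 RPKM in Scramble and 11.3 to 37.2 RPKM over all libraries. Nox1, the colon-type homolog of Cybb, reached at most 2.52 RPKM and Nox3 at most 2.63 RPKM. Nox4 and Duox1 reached at most 0.12 and 0.18 RPKM, and Duox2 was listed at 0 throughout.

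Of 13 tested Rac and Rap paralogs, GDP dissociation inhibitors and exchange factors, 0 were called in Atf3KO, JunKO or JunDKO against Scramble, beside 12.5%, 0.196% and 4.97% of all models, and with KLA 0 of 14 tested, beside 1.13%. Against JunKO, Atf3KO had a lower level of the paralog Rap1b, with a log2 fold change of -1.04, and a higher level of Rhog at 1.00, the 2 of 13 called, beside 9.71% of all models (limma-trend adjusted p = 0.00658 and 0.0313). Vav3, an exchange factor for Rac, was the 1 of 13 called in Atf3KO against JunDKO, beside 12.2% of all models, at -1.27 (limma-trend adjusted p = 0.0061).

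Of 8 tested kinases that act on the oxidase, Prkcb, a protein kinase C that phosphorylates Ncf1, fell in JunDKO, with a log2 fold change of -1.44 ± 0.18 (SE over 2 libraries per group; limma-trend adjusted p = 0.00192), from 49.3 and 53.5 to 16.6 and 20.2 RPKM. Pik3c3, the lipid kinase that makes the phosphoinositide bound by Ncf4, fell in Atf3KO by 1.10 ± 0.19 on the log2 scale (SE over 2 libraries per group; limma-trend adjusted p = 0.00351). Each was the 1 of 8 kinases called in its comparison, beside 4.97% of all models in JunDKO and 12.5% in Atf3KO, and none of the 8 was called in JunKO or with KLA, beside 0.196% and 1.13% of all models. In Atf3KO against JunDKO 2 of 8 were called, beside 12.2% of all models, Prkcb at 1.52 and Pik3c3 at -1.54 (limma-trend adjusted p = 0.000686 and 0.00074), and in JunDKO against JunKO 1 of 8, beside 3.5%, Pak1 at 1.19 (limma-trend adjusted p = 0.00929). Between TGEMs and Scramble 2 of 8 were lower, beside 19.9% of all models called, Pak1 at -2.27 and Pik3cg at -1.54 (limma-trend adjusted p = 0.000115 and 0.000377).

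Hvcn1, the voltage-gated proton channel that balances the charge moved by the oxidase, was the 1 of 4 channel and regulator genes called in JunDKO, beside 4.97% of all models. It fell from 22.3 and 18.8 RPKM in Scramble to 3.65 and 2.26 in JunDKO, a log2 fold change of -2.47 ± 0.26 (SE over 2 libraries per group; limma-trend adjusted p = 0.000809). In vehicle TGEMs it was higher than in Scramble, the 1 of 4 called there beside 19.9% of all models, with a log2 fold change of 2.57 ± 0.29 (SE, 2 libraries per side; limma-trend adjusted p = 0.000158). None of the 4 was called in Atf3KO or JunKO against Scramble, beside 12.5% and 0.196% of all models. In JunKO Hvcn1 measured 10.4 and 11.5 RPKM, a log2 fold change of -0.85 against Scramble (limma-trend adjusted p = 0.386). From JunKO to JunDKO its log2 fold change was -1.62 (limma-trend adjusted p = 0.00778). That was not called, since the means of 10.955 and 2.955 RPKM were under the 16 RPKM limit. In Atf3KO against JunDKO Hvcn1 was the 1 of 4 called, beside 12.2% of all models, at 2.16 (limma-trend adjusted p = 0.000693).

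Of 6 tested enzymes that remove superoxide and peroxide, 4 were called lower in JunDKO and 0 in JunKO, and in Atf3KO 2 were called lower and 1 higher, beside 4.97%, 0.196% and 12.5% of all models called in either direction. Between vehicle TGEMs and Scramble 4 of 6 were called lower as well, beside 19.9% of all models, with log2 fold changes of -3.38 for Prdx6, -2.19 for Cat and -2.15 for Sod2 and a median over the 6 of -1.87, beside -0.32 over all tested models. The median over the 6 was -1.54 in JunDKO, beside 0.23 over all tested models. Catalase (Cat) fell from 423 and 383 RPKM in Scramble to 84.3 and 77.9 in JunDKO, a log2 fold change of -2.30 ± 0.17 (SE over 2 libraries per group; limma-trend adjusted p = 0.000191), and had one of -1.42 in Atf3KO (limma-trend adjusted p = 0.00105). In JunDKO the peroxiredoxin Prdx6 fell by 2.26 and the mitochondrial superoxide dismutase Sod2 by 1.74 on the log2 scale (limma-trend adjusted p = 0.000193 and 0.000925). In Atf3KO the cytosolic Sod1 had a log2 fold change of -1.35 and the glutathione peroxidase Gpx4 one of 1.30 (limma-trend adjusted p = 0.00173 and 0.00688). In JunDKO against JunKO 3 of 6 were called lower, beside 3.5% of all models, Prdx6 at -1.57, Sod2 at -1.51 and Cat at -1.26. In Atf3KO against JunDKO 3 of 6 were called, beside 12.2%, Sod2 at 1.37, Prdx6 at 1.28 and Sod1 at -1.26, and in Atf3KO against JunKO 2 of 6, beside 9.71%, Sod1 at -1.22 and Gpx4 at 1.12. Sod2 was the 1 of 6 that rose with KLA, beside 1.13% of all models called, with a log2 fold change of 1.74 ± 0.28 (SE, 3 KLA and 2 vehicle libraries; limma-trend adjusted p = 0.0306).

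**Figure D5:**
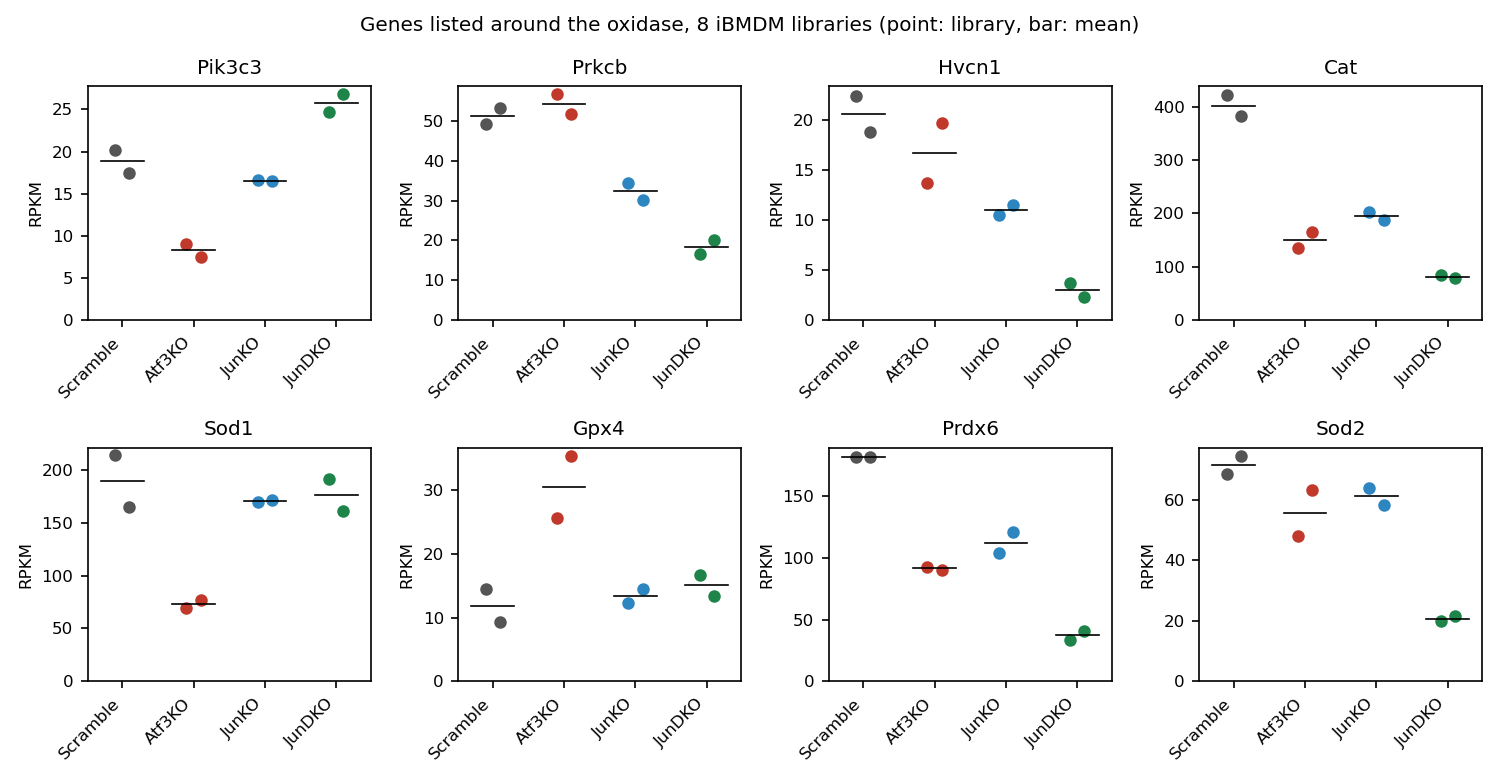
RPKM of the listed genes named for Atf3KO or JunDKO against Scramble (vertical axes from 0) in the 8 iBMDM libraries, with a point for a library and a bar for the group mean. Hvcn1 was at 3.65 RPKM or below in both JunDKO libraries, and Cat was lower in all 6 knockout libraries than in both Scramble libraries, though not called in JunKO (limma-trend adjusted p = 0.0729).

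Models whose level was most like that of a subunit gene over the 8 iBMDM libraries were sought among 4133 others by Pearson's correlation of log2(RPKM + 1), as a description. The 8 libraries are pairs from 4 groups and differ in depth, and no p is given. For Cyba these were Dbnl (0.993), Cox6a1 (0.990) and Atxn2l (0.988), and for Cybb they were Cfl1 (0.952), Vmp1 (0.945) and Dnajc10 (0.940). For Ncf1 they were Map7d1 (0.972), Ebi3 (0.971) and Mink1 (0.968), and for Ncf4 they were Ptprs (0.980), Wbscr22 (0.966) and Ap3d1 (0.966). Cybb and Cyba themselves had a correlation of -0.22 over these 8 libraries.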

How the data were processed

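PolyA RNA-seq values of 13 of 17 samples were used, and 4 GRO-seq samples were not analysed here. The deposited RPKM values were made by the authors, who aligned reads with STAR to mm10 (Balb/cJ reads to a genome of that strain) and ran HOMER over exons with condensed genes. Tool versions and a strand option are not given in the sources used here. Every column of values belonged to a sample.

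Depth and whole reads were recovered from the RPKM steps (99.9% to 100% of values up to 50 reads within 0.05 of a whole number or within rounding), and depth limits low levels. In simulated tables at least 99.46% of models got their reads back. Models that averaged 1 RPKM or more across the fitted libraries were tested with limma-trend on log2(RPKM + 1), two-sided, with Benjamini-Hochberg adjustment over all tested models. Calls used the 2-fold and 16 RPKM limits of the study's results text, and the log2 limit of 2 in its methods was an alternative. Fits held the 4 iBMDM groups (8 libraries), treatment and strain (5 TGEM libraries), or all 8 groups (TGEMs against iBMDMs). Fold changes on this scale understate changes of low genes. The authors tested counts with edgeR, and here the deposited RPKM were tested, with recovered reads as an alternative. On simulated data with 200 genes changed 4-fold, 192 (Atf3KO), 196 (JunDKO), 193 (KLA) and 193 (TGEM) were called, with 0, 2, 4 and 8 unchanged models.

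The 7 genes, the 5 pathway lists and the marker lists were chosen with earlier results of these data known. From each list at most 3 called genes per comparison were named, by absolute fold change, along with the 7 genes, the targeted genes and the 3 models most like each subunit gene. A result of the GTPase regulator list between TGEMs and Scramble is not reported here. Alternatives were another pseudocount (5 RPKM), no low filter, other scalings, limma-voom on recovered reads, a GC correction (spline with 5 degrees of freedom), stricter or looser limits, other fits, a replicate block and each library left out. GC content was known for 98.3% of models. Computations ran in R 4.3.3 with limma 3.58.1 and in Python 3.11.15 with pandas 2.3.3, numpy 2.4.6 and matplotlib 3.10.9.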

Additional observations from a re-analysis of the deposited data

Results flagged for a closer look

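With KLA, Cyba and Ncf4 moved one way in the C57Bl/6EiJ library and the opposite way in both Balb/cJ libraries. Cyba changed by -0.09 on the log2 scale in C57Bl/6EiJ and by 0.24 and 0.44 in Balb/cJ, a difference of 0.43 ± 0.58 (SE; limma-trend interaction adjusted p = 0.891). Ncf4 changed by -0.51 in C57Bl/6EiJ and by 0.22 and 0.25 in Balb/cJ, a difference of 0.74 ± 0.53 (SE; limma-trend interaction adjusted p = 0.78). Neither difference passed, the interaction had 1 residual degree of freedom, and both Balb/cJ values rest on the same vehicle library.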

How the results depend on the processing

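Of 854 log2 fold changes of the 7 genes over all comparisons and alternatives, 58 changed direction, and none of the 58 was called in either fit. Of these, 27 belong to values given in the text and are given here, and which values the text gives was chosen after these changes were seen. The number of the 7 genes called changed as follows. With the GC correction it was 1 in Atf3KO against Scramble, 1 in Atf3KO against JunKO and 2 in TGEMs against Scramble. There 810 of 10591, 611 of 10591 and 1822 of 10822 tested models were called, in the same order. With quantile normalization it was 2 in Atf3KO against JunDKO, where 1310 of 10691 tested models were called. With a log2 fold change of at least 2 it was 1 in Atf3KO against Scramble, 0 in JunDKO against Scramble, 0 in JunDKO against JunKO, 1 in Atf3KO against JunKO, 2 in Atf3KO against JunDKO and 1 in TGEMs against Scramble, where in the same order 264, 151, 110, 169, 271 and 785 of all tested models were called. For KLA it was 1 with limma-voom on recovered reads and 1 with all 13 libraries in a single fit, where 228 of 10357 and 218 of 10929 tested models were called. With 1 library left out it ranged from 1 to 2 in Atf3KO against Scramble, from 0 to 1 in JunDKO against Scramble and against JunKO, from 2 to 3 in Atf3KO against JunDKO and from 1 to 3 in Atf3KO against JunKO. Each fit without 1 library assumes that a lone library varies like the other groups. Log2 fold changes that changed sign were, with the GC correction, Cybb 0.46, Ncf4 -0.0804 and Rac1 0.0071 in Atf3KO, Ncf4 -0.0542 in JunDKO and Rac1 0.20 in TGEMs against Scramble. With equal library medians they were Rap1a -0.0148 in JunKO, Ncf4 -0.0835 and Rac1 -0.0748 in JunDKO and Ncf4 0.0554 with KLA, and with quantile normalization Rap1a -0.0023 in JunKO. With 1 library left out the log2 fold changes that crossed 0 ranged in Atf3KO from -0.45 to 0.21 for Cybb. In JunKO they ranged from -0.33 to 0.11 for Cybb, from -0.51 to 0.0223 for Ncf4, from -0.14 to 0.0622 for Rac1, from -0.41 to 0.19 for Rac2 and from -0.26 to 0.29 for Rap1a. In JunDKO they ranged from -0.0702 to 0.46 for Ncf4, with KLA from -0.0909 to 0.34 for Cyba and from -0.51 to 0.24 for Ncf4, and in TGEMs against Scramble from -0.13 to 0.40 for Rap1a. Cybb gained a call in Atf3KO against JunDKO with the GC correction (1.27), and Rac2 in Atf3KO against JunKO without JunKO replicate 1 (1.01). The replicate block changed no call of the 7 genes, with 2 called in Atf3KO, 0 in JunKO and 1 in JunDKO against Scramble. Over all models it left 1320, 8 and 506 calls against 1339, 21 and 531. Same-numbered libraries deviated together in the 3 pairs among Scramble, JunKO and JunDKO, whose libraries share a label date (Pearson's r 0.18 to 0.22), and in opposite ways in the 3 pairs with Atf3KO, whose libraries have 2 label dates (-0.21 to -0.12). The labels do not say that a number marks a shared culture or day. The causes of these changes were not tested. Over all models, the GC correction left 810 calls in Atf3KO, 63 in JunKO and 533 in JunDKO against Scramble, and limma-voom made 228 calls with KLA against 117. Rap1a had 42 to 100 reads in 7 iBMDM libraries, and the smallest difference that 2 libraries a group can show was not measured.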
